A study of Macaca mulatta with 27 samples.

Results

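SPMAP2, HSBP1L1 and LOC720650 are 3 of the 14132 genes that the array's annotation names with a single symbol, and each was read by 1 probe set. They were chosen from measured values, for their wide range of signal among the embryonic stem cell lines, so their differences among lines are given as a description with no test. SPMAP2, whose older symbol is THEG, encodes a sperm microtubule associated protein and is best known from the testis, where its mouse counterpart is made in spermatids, the haploid cells that build the sperm tail. HSBP1L1 is named for its likeness to HSBP1, a small coiled-coil protein that binds heat shock factor 1, the transcription factor that switches on chaperone genes. LOC720650 is listed in RefSeq as a pseudogene on the X chromosome and has no named role.

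The study set out to profile newly derived, pedigreed rhesus macaque (Macaca mulatta) embryonic stem cell lines. Total RNA of 10 lines was hybridised to 27 Affymetrix rhesus arrays, with 3 arrays for each line except line 206, which had 2, and line 2906, which had 1. The deposited values are signals on a linear scale with a call of present, marginal or absent for each probe set on each array. Nothing in the labels tells whether a line's arrays stem from different cultures, and p-values may then reflect only technical spread.

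Each line grew out of the inner cell mass of 1 blastocyst. All lines shared the culture conditions: mitomycin C-treated mouse embryonic fibroblast feeders in serum replacement medium with bFGF, Activin A and hLIF, with colonies of good morphology scraped for RNA. The male lines were 106, 306, 906, 2706 and 3106, and the female lines were 206, 2406, 2906, 3006 and 3806. Lines 106, 206 and 306 were fraternal triplets of sire M106 and dam F244, and lines 2706, 2906, 3006 and 3106 were fraternal quadruplets of M106 and dam F88. Line 2406 came from M106 and dam F77, and line 3806 from M106 and dam F32. Line 906 came from sire M36 and dam F183 and shared no parent with the others. A line thus stands for 1 embryo.

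The labelled cell type was borne out by its markers, since POU5F1 and SOX2, transcription factors of pluripotent cells, were called present on all 27 arrays, with line means that spanned 0.43 and 0.90 log2 units. NANOG, another such factor, was present on 26 arrays. The median signal of an array ran from 94.1 to 159.7, and 38.2% to 46.9% of probe sets were called present. The GAPDH 3' to 5' ratio, a measure of RNA or label quality, had a median of 2.10. It exceeded 3 on 6 arrays and was highest, at 13.3, on the single array of line 2906, so all values of line 2906 stand on the array with the highest such ratio. In RNA of whole colonies, fewer expressing cells and less RNA per cell cannot be told apart.

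SPMAP2 was detected in lines 3806 and 2906 and called absent in the other 8. On the 3 arrays of line 3806 its signal was 1953.9, 2474.3 and 1860.7, and on the array of line 2906 it was 387.7, all called present. Line 3006 gave 88.6, 124.1 and 76.4, all called absent. These 3 lines stood in 3 separate steps, and no array of one overlapped with an array of the next.

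The remaining SPMAP2 values were low and close together. Male line 106 gave 24.0, 13.4 and 29.7, line 306 gave 17.6, 11.3 and 18.2, and line 906 gave 20.2, 20.6 and 10.8. Male line 2706 gave 22.7, 35.2 and 15.5, and line 3106 gave 8.8, 18.5 and 18.6. Female line 206 gave 15.1 and 23.5, and line 2406 gave 11.5, 11.1 and 14.5. In the order of line means, each of these 7 lines overlapped with its neighbour, although line 2406, at 11.1 to 14.5, lay wholly below lines 2706 and 206.

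On the scale log2(signal + 16), SPMAP2 averaged 11.03 ± 0.22 in line 3806 (SD, n = 3 arrays), 8.66 in line 2906 (1 array) and 6.79 ± 0.31 in line 3006 (n = 3). Line means of the other 7 ran from 5.31 ± 0.35 in line 2706 down to 4.82 ± 0.09 in line 2406 (n = 3 each). The range of 6.21 log2 units was matched or exceeded by 8 of the 32856 tested probe sets, and 98.4% of the variance lay between lines. For comparison, the median tested probe set had a range of 0.95 and 20.9% of its variance between lines. Absent calls leave only an upper limit for the low lines, and folds are therefore lower bounds, taken against the line's own signal or, where that was dimmer, the lowest signal called present on the same array. Each is the smallest of the folds between mean signals, mean log2(signal) and mean log2(signal + 16). By that measure SPMAP2 was at least 71.7-fold higher in line 3806 than in line 2406 and at least 18.9-fold higher than in line 3006.

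HSBP1L1 was called present on every array of 5 lines and absent on every array of the other 5. In the triplets it was present throughout, with signals of 353.7 and 372.4 on 2 arrays of line 106 and a log2(signal + 16) of 8.99 on the other. Its signals were 488.1 and 537.3 in line 206 and 651.4, 627.3 and 414.9 in line 306. It was also present in line 3106, at 231.9, 278.1 and 278.8, and in line 3806, at 378.6, 246.8 and 278.9. The arrays of neighbouring lines overlapped all the way down this upper set.

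Among the lines without a present call, HSBP1L1 had a signal of 141.6 on the array of line 2906, and of 92.2, 79.2 and 52.5 in line 2406. Line 3006 gave 81.2, 63.1 and 6.5, line 2706 gave 17.7, 53.7 and 43.6, and line 906 gave 5.8, 10.1 and 21.9. Line 2906 lay by itself, below every array of line 3106 and above every array of line 2406, while the lowest 4 lines overlapped with their neighbours. Line means ran from 9.15 ± 0.35 in line 306 to 4.80 ± 0.41 in line 906 (SD, n = 3 each), a range of 4.36 log2 units that 0.155% of tested probe sets reached. The signal was at least 17.9-fold higher in line 306 than in line 906.

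LOC720650 was called present on every array of lines 206 and 3806. Its signals were 685.5 and 489.4 in line 206, and 497.5, 375.2 and 279.9 in line 3806. Line 2406 came next with 168.1, 110.5 and 131.8, of which the last was called marginal and the others absent. Lines 206 and 3806 overlapped with each other but not with line 2406.

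In the other 7 lines LOC720650 was called absent throughout. Line 3006 gave 103.3, 98.6 and 90.8, line 306 gave 82.0, 100.6 and 89.8, and line 2706 gave 105.4, 34.0 and 61.1. Line 906 gave 13.6, 77.8 and 58.8, line 2906 gave 43.8, line 106 gave 51.4, 142.4 and 3.1, and line 3106 gave 5.3, 7.7 and 3.8. Each of these lines overlapped with its neighbour in the order, although line 3106 held 3 of the 4 lowest values. The line means spanned 4.79 log2 units, from 9.22 ± 0.33 in line 206 (SD, n = 2) to 4.43 ± 0.13 in line 3106 (n = 3), and 0.0822% of tested probe sets spanned as much.

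**Figure D1:**
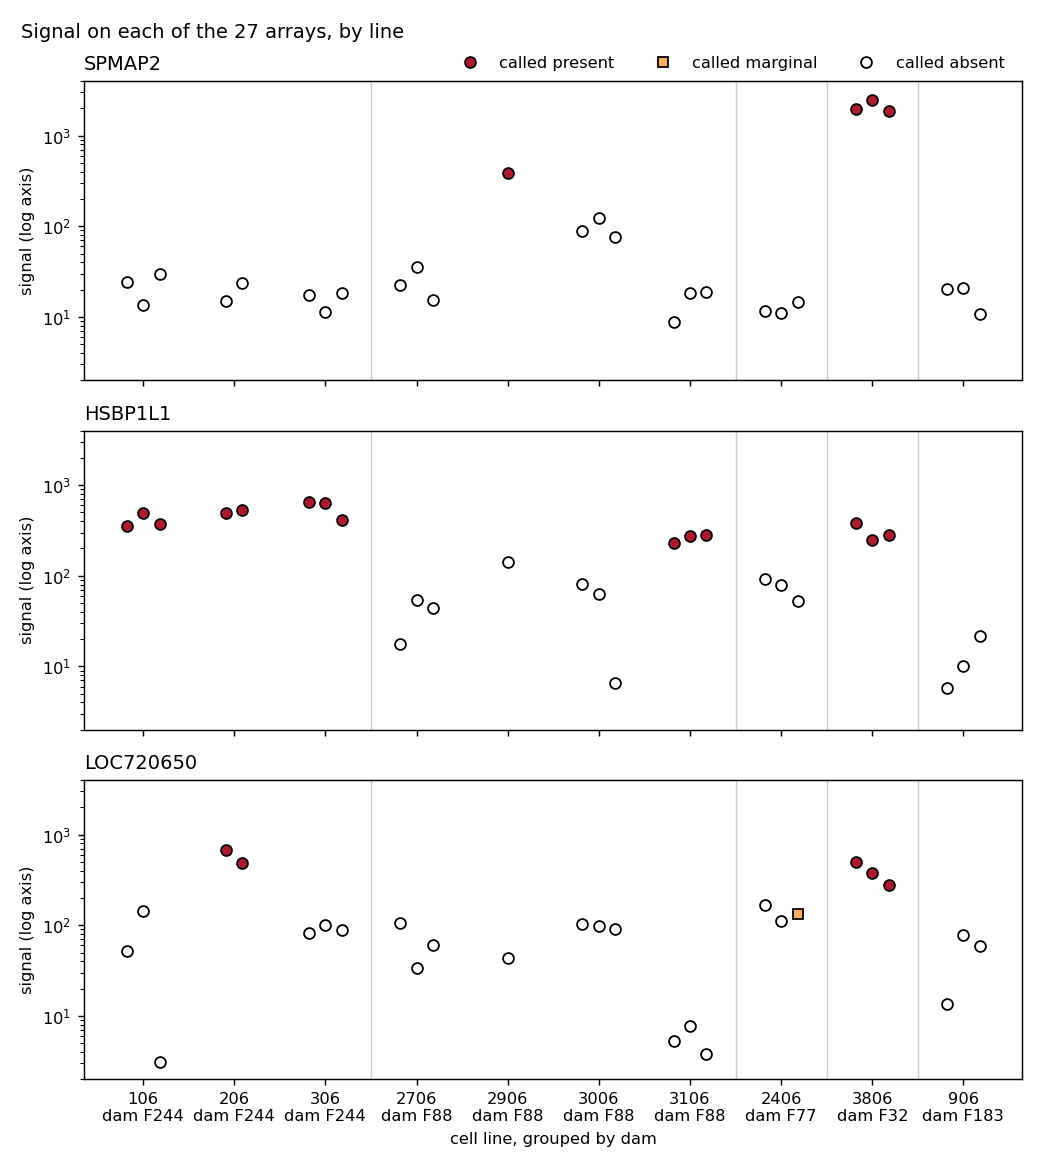
Signal of SPMAP2, HSBP1L1 and LOC720650 on each of the 27 arrays (log axis), with lines grouped by dam along the horizontal axis and 1 point per array. Filled circles were called present, the square marginal and open circles absent. SPMAP2 in line 3806 sits at 1860.7 to 2474.3, HSBP1L1 is filled in 5 lines, and LOC720650 is filled in lines 206 and 3806.

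The arrays of a line spread more for LOC720650 than for SPMAP2. The within-line SD was 0.67 for LOC720650, 0.51 for HSBP1L1 and 0.26 for SPMAP2 on the log2 scale, against 0.35 for the median tested probe set. Line 106 carried the widest spread of LOC720650 (5.88 ± 1.54, n = 3), with its highest value on the array that also had the highest median signal of the study and a GAPDH ratio of 4.61. Without that array the mean of line 106 was 5.17. Over the 26 arrays of lines with more than 1, deviations of LOC720650 from its line mean had a Pearson r of 0.433 with deviations of the array median, 0.394 with the GAPDH ratio and -0.458 with the percentage of present calls. For SPMAP2 and HSBP1L1 none of the same 3 measures passed 0.191 in size. The part of array quality in the spread of LOC720650 was not tested.

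A strict on-off gene was defined as one with at least 1 line present on every array, at least 1 absent on every array, and no line in between. SPMAP2 and HSBP1L1 met that definition and LOC720650 did not, because of the marginal array of line 2406. That array was 1 of the 6 with a high GAPDH ratio, and without those 6 LOC720650 met the definition too. Line 2406 then kept only 1 array, called absent at 168.1, so this change says nothing about the part of array quality. Over all tested probe sets 195 met it, a background of 0.593%. Counted by genes, each through its brightest probe set, the background was 43 of 11317 (0.38%). Of the 195 probe sets, 182 singled out 1 line, and line 2906, with its 1 array, was the only line off in 110 and the only line on in 46. SPMAP2 and HSBP1L1 were among 8 that followed neither a single line nor sex. No other tested probe set had the same lines on and off as SPMAP2 or HSBP1L1. Without line 2906, 40 probe sets were on-off, and SPMAP2 then marked line 3806 alone.

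The label "on-off" described the calls better than the signals. The 27 sorted values of SPMAP2 had a largest gap of 2.22 log2 units between adjacent arrays, with at least 3 arrays required on each side, and 25 tested probe sets (0.0761%) had a gap of at least 2. The gap lay between line 2906 and the 3 arrays of line 3806. Without line 2906 it was 3.74, between the arrays of lines 3006 and 3806.

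HSBP1L1 and LOC720650 had no such gap. The largest gap of HSBP1L1 was 0.65, between the array of line 2906 and the lowest array called present, and 2.52% of tested probe sets had one at least as large. Without line 2906 it was 1.20. The largest gap of LOC720650 was 0.76 and lay among absent arrays at the low end, with 22 arrays above it, and 1.61% of tested probe sets had one at least as large. With a pseudocount of 1 it was 1.26 at the same place, and with one of 64 it was 0.57 and lay between the 5 present arrays and the rest. The lowest present signal of LOC720650, 279.9, stood 0.68 log2 units above its highest signal without a present call, 168.1. That step was 1.53 for SPMAP2 and 0.65 for HSBP1L1.

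**Figure D2:**
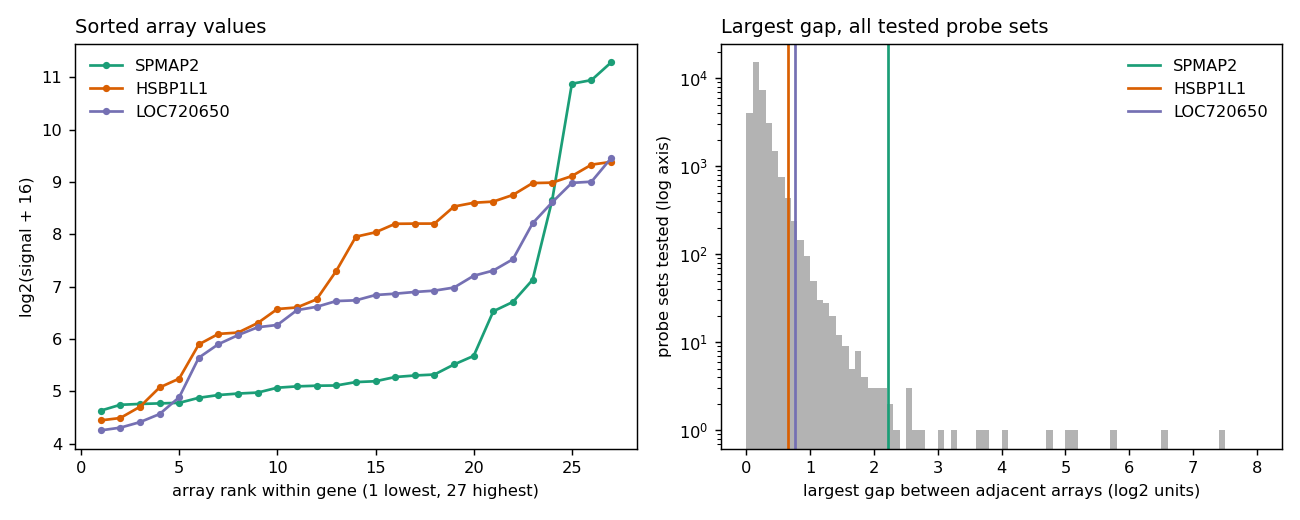
Left, the 27 array values of each gene in rising order, in log2(signal + 16). Right, the largest gap between adjacent arrays for all 32856 tested probe sets (log vertical axis), with vertical lines for the 3 genes: SPMAP2 lies at 2.22, while HSBP1L1 at 0.65 and LOC720650 at 0.76 are matched or exceeded by 2.52% and 1.61% of tested probe sets.

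Each gene differed in state between some full siblings. The state differed in 3 of 9 full-sibling pairs for SPMAP2, 3 of 9 for HSBP1L1 and 2 of 9 for LOC720650. Every pair that differed for SPMAP2 included line 2906, so that count rests on 1 array, the one with the highest GAPDH ratio. Among the 195 on-off probe sets, the quadruplets differed in 90.8% and the triplets in 3.59%, or in 50% and 17.5% of the 40 found without line 2906. In the quadruplets, which share both parents, SPMAP2 was detected in line 2906 alone, HSBP1L1 in line 3106 alone and LOC720650 in none. SPMAP2 was at least 13.1-fold higher in line 2906 than in its sibling 3106, at least 10.2-fold higher than in 2706 and at least 3.65-fold higher than in 3006. HSBP1L1 was at least 5.35-fold higher in line 3106 than in 2706, at least 4.39-fold higher than in 3006 and at least 1.76-fold higher than in 2906. With 1 array left out, these bounds ran from 4.31 to 6.20, from 3.17 to 5.43 and from 1.71 to 1.87 in turn. The quadruplet line means spanned 3.71 log2 units for SPMAP2, 2.42 for HSBP1L1 and 2.40 for LOC720650, against a median of 0.68 over tested probe sets. With line 2906 left out, SPMAP2 spanned 1.84 among the quadruplets, against a median of 0.40.

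In the triplets SPMAP2 was absent from all 3 lines and HSBP1L1 present in all 3, with line means spanning 0.26 and 0.45 log2 units, near the median of 0.35 for tested probe sets. LOC720650 divided the triplets. It was at least 8.67-fold higher in line 206, the female triplet, than in line 106, and at least 5.59-fold higher than in line 306, both male. The bound against line 106 turned on single arrays of that line: it was 14.4 without array 106c, which held its highest signal, and 5.76 without array 106d, which held its lowest. Its range of 3.34 in the triplets was reached by 0.0457% of tested probe sets.

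Across dams, line 3806 was the only line with all 3 genes detected, and it was the only line of dam F32. Line 206 had HSBP1L1 and LOC720650. Lines 106, 306 and 3106 had HSBP1L1 alone, and line 2906 had SPMAP2 alone. Lines 906, 2706 and 3006 had none, and neither did line 2406, apart from its marginal call for LOC720650. The levels of the 3 genes followed each other loosely over the 10 lines: Pearson r of line means was 0.337 for SPMAP2 and LOC720650, 0.276 for HSBP1L1 and LOC720650, and 0.098 for SPMAP2 and HSBP1L1.

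The sex of the lines was not used to choose the genes, and it was tested. The test used the same line means whose wide range had chosen them, and limma draws a wide variance towards that of other probe sets. The unadjusted p-values of the 3 genes are therefore not free of that choice. Male and female lines were compared by their line means with limma across all tested probe sets, with p-values adjusted by Benjamini-Hochberg. Lines entered as independent, and their shared sire and dams were not modelled. None of the 3 genes passed an adjusted p of 0.05, while 2 of 3 had an unadjusted p under 0.05. In the whole comparison 19 probe sets passed (0.0578%), of which 11 were higher (0.0335%) and 8 lower (0.0243%) in male lines. Of the 32856 tested, 1982 had an unadjusted p under 0.05.

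SPMAP2 averaged 5.10 ± 0.16 in male lines and 7.29 ± 2.59 in female lines (SD, n = 5 lines each). The difference, male minus female, was -2.18 ± 0.95 log2 units (SE), with a 95% interval of -4.25 to -0.11 and an adjusted p of 0.774 by limma (unadjusted p = 0.0403). The fit took the same spread for both sexes, which these SDs do not share, so that interval is uncertain. The 3 lines with the highest SPMAP2 were all female, yet female lines 206 and 2406 lay within or below the male range of 4.95 to 5.31. Without line 3806 the difference was -1.25.

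LOC720650 averaged 5.84 ± 0.86 in male lines and 7.56 ± 1.35 in female lines (SD, n = 5 lines each). Its difference was -1.72 ± 0.59 (SE), with a 95% interval of -3.0 to -0.43 and an adjusted p of 0.774 by limma (unadjusted p = 0.0132). Female lines 206, 3806, 2406 and 3006 were above every male line, and female line 2906 lay among the male lines. HSBP1L1 averaged 7.30 ± 1.93 in male lines and 7.38 ± 1.32 in female lines (SD, n = 5 lines each), and its difference of -0.09 ± 0.86 (SE) had a 95% interval of -1.95 to 1.78 and an adjusted p of 0.983 by limma (unadjusted p = 0.921). Both sexes held lines with and without HSBP1L1.

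**Figure D3:**
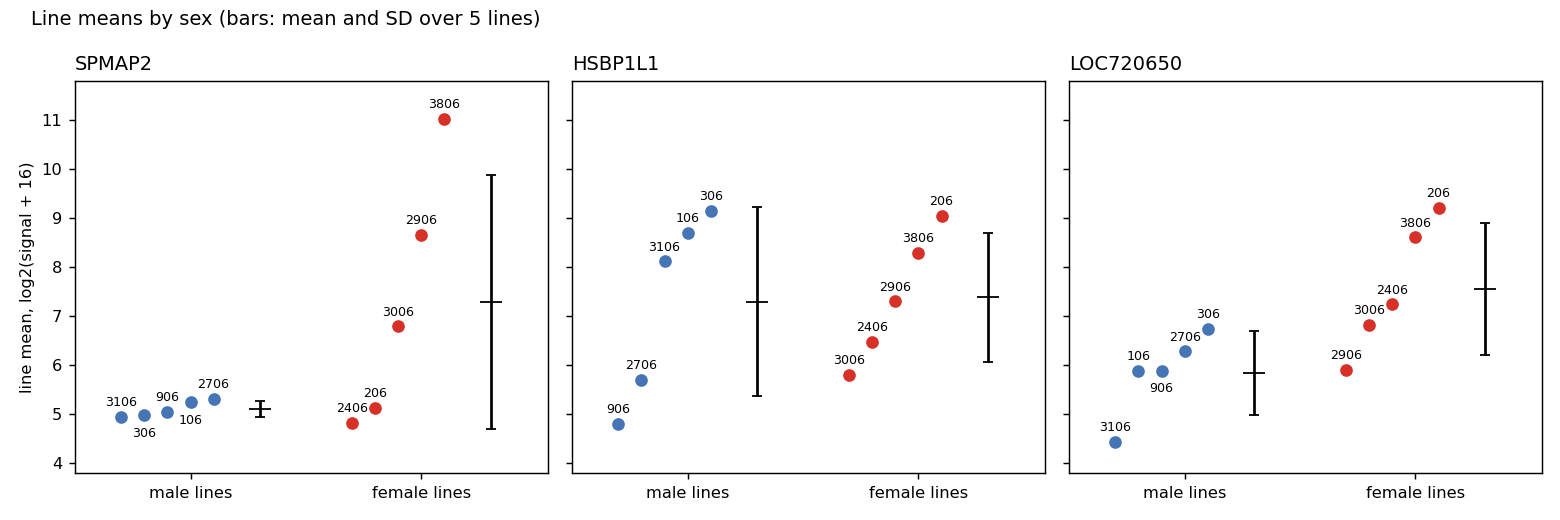
Line means of each gene in log2(signal + 16), male lines left and female lines right, 1 labelled point per line, with bars for the mean and SD over 5 lines. Male lines lie at 4.95 to 5.31 for SPMAP2 while female lines reach 11.03, and for HSBP1L1 the sexes overlap throughout.

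Genes on either side of the members in the RefSeq gene order were read for comparison, with limma's F test over the 10 lines and Benjamini-Hochberg adjustment. By that test 16.6% of tested probe sets and 17.4% of genes differed among lines. SPMAP2 lies on chromosome 19 next to MIER2, a chromatin-associated corepressor subunit, whose line means spanned 0.67 log2 units (adjusted p = 0.792). PLPP2, a lipid phosphatase on the same side, spanned 1.18 (adjusted p = 0.267). On the other side SHC2, a signalling adaptor, did differ among lines (range 2.41, adjusted p = 0.00265), but it was lowest in line 3806, at 6.91, and highest in line 2906, at 9.32.

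BSG, which encodes the membrane glycoprotein basigin, had 3 tested probe sets that disagreed: their ranges were 0.94, 1.86 and 4.29, with adjusted p of 0.0922, 0.0271 and 0.000229 by limma's F test. The widest, present on 2 arrays, was highest in line 3006 and stood at 4.96 in line 3806, where SPMAP2 was highest. TPGS1 had no tested probe set. None of the tested neighbours of SPMAP2 was highest in line 3806.

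HSBP1L1 lies on chromosome 18 directly beside TXNL4A, a spliceosome component. TXNL4A had 4 tested probe sets with ranges of 0.67 to 1.16 log2 units, of which 2 differed among lines by limma's F test. They were highest in line 2906 (adjusted p = 0.0252) and in line 306 (adjusted p = 0.044), and HSBP1L1 too was highest in line 306. They were lowest in lines 3806 and 3106 in turn, where HSBP1L1 was present. Their line means had a Pearson r of -0.663 and 0.310 with those of HSBP1L1, against 0.565 and 0.271 for the other 2 probe sets of TXNL4A. RBFA, a mitochondrial ribosome assembly factor, and CTDP1, a phosphatase of RNA polymerase II, had no probe set past the threshold. One probe set of 3 tested for NFATC1, a calcium-regulated transcription factor, differed (range 2.71, adjusted p = 0.000666) and was highest in line 3006, where HSBP1L1 was absent. It was called present on 6 arrays, and the NFATC1 probe set present on all 27 did not pass (adjusted p = 0.0588). Of 3 tested for ATP9B, a phospholipid flippase family member, 2 differed (adjusted p = 0.0158 and 0.00207), called present on only 3 and 2 arrays. The first was highest in line 3806, where HSBP1L1 was present, and the second in line 2706, where HSBP1L1 was absent. The ATP9B probe set present on 26 arrays did not pass (adjusted p = 0.0575). PARD6G had no tested probe set.

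LOC720650 lies on the X chromosome. Its nearest genes with a probe set were MXRA5, which encodes a matrix-remodelling associated protein, on one side and LOC720662 on the other. In between lay 13 and 2 listed genes without a probe set. MXRA5 differed among lines with a range of 1.43 (adjusted p = 0.0296), highest in line 2906. PUDP, a pseudouridine phosphatase further along, had 1 of 2 probe sets past the threshold (range 2.52, adjusted p = 0.0135). That probe set was highest in line 206, at 9.30, as LOC720650 was, and its line means had a Pearson r of 0.601 with those of LOC720650 over 10 lines. This was the highest r among the tested neighbours of LOC720650. The others ran from -0.583 for a probe set of LOC707168 to 0.422 for the other of PUDP. ARSF and LOC707168 did not pass, and ARSH and LOC720662 had no tested probe set. The suffix of the LOC720650 probe set marks it in Affymetrix naming as one whose probes match more than 1 transcript, so its signal may hold other transcripts.

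**Figure D4:**
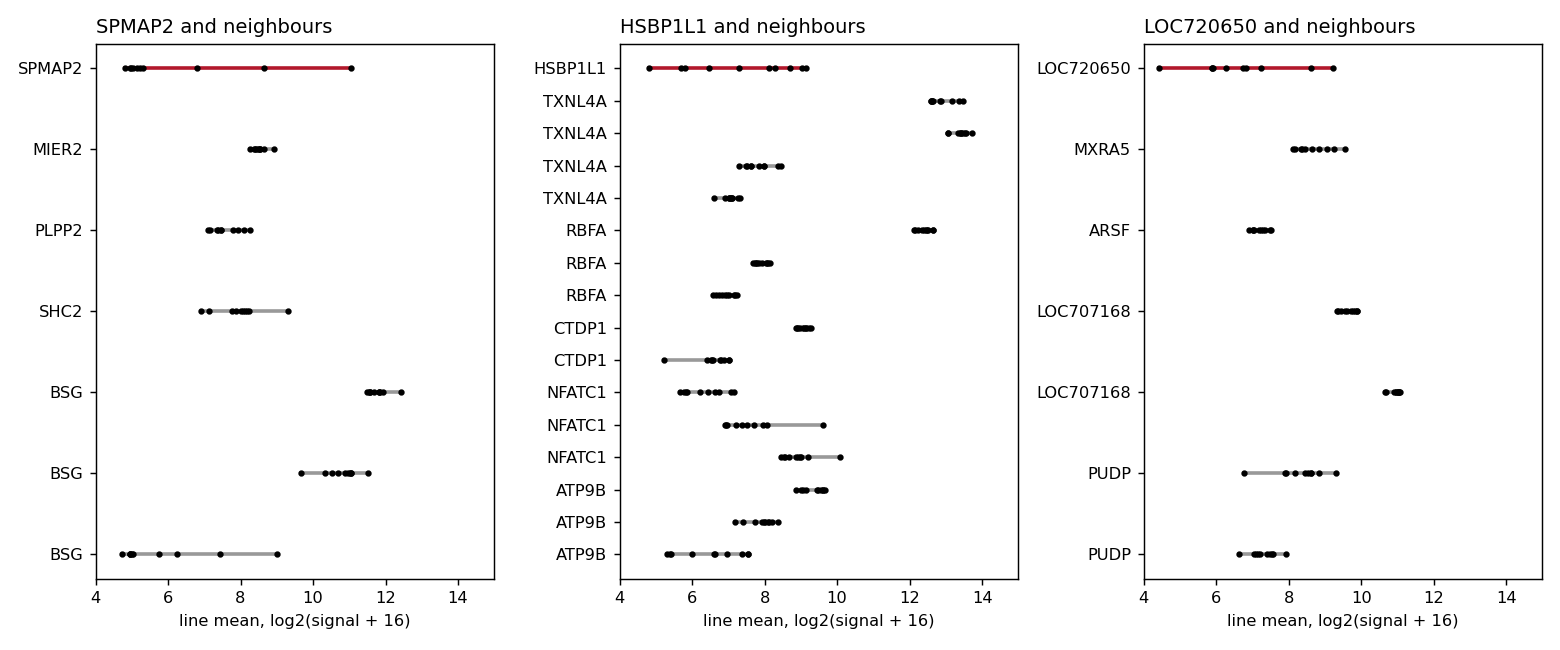
Line means in log2(signal + 16) of each gene (top row of each panel, red bar) and of the tested probe sets of its neighbours in the RefSeq gene order, 1 row per probe set, 1 point per line, with the bar from lowest to highest line. SPMAP2 spans 6.21 while MIER2 beside it spans 0.67, and HSBP1L1 spans 4.36 while the 4 probe sets of TXNL4A span 0.67 to 1.16.

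Other genes were ranked by the Pearson r of their line means with each member over the 10 lines, as a description among 11316 genes that share the same arrays. The genes most like SPMAP2 were PTK7, a receptor-like kinase of the planar polarity pathway (r = 0.932), PLPP3, a lipid phosphatase (0.918), COQ8B (0.903), BMP1, a procollagen protease (0.894), and C11H12orf50 (0.888). All 5 were highest in line 3806, but their line means spanned 0.47 to 1.10 log2 units. None of the 5 was among the nearest 5 by Spearman's rho. LZTS1 (-0.949), AKIRIN2 (-0.929) and PTPRB (-0.922) ran most opposite to SPMAP2.

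KLHL13, a substrate adaptor of a ubiquitin ligase, was most like HSBP1L1 by Pearson r (0.971), by Spearman's rho (0.976), and by Pearson r without line 2906 (0.980). Its line means spanned 0.81 log2 units, from 9.87 in line 306 to 9.06 in line 2706, and it was present on all 27 arrays. GPR119 (0.915), LOC711739 (0.889), SETD2 (0.886) and C1RL (0.883) followed, of which GPR119 and LOC711739 were present on 0 arrays. CLNS1A (-0.953), MDH1B (-0.898) and LGI1 (-0.896) ran most opposite.

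For LOC720650 the nearest genes were BCAT2, a branched-chain aminotransferase (0.894), TNRC6C (0.885, present on 0 arrays), HOPX (0.870), CEP97 (0.853) and LOC700381 (0.849). HECA (-0.956), ISCA1 (-0.884) and SFTA2 (-0.881) ran most opposite, with HECA highest in line 3106, where LOC720650 was lowest.

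Of 30 genes of spermatid and sperm structure, the setting in which SPMAP2 is known, 18 were on the array and 7 were tested. Of the 18, 10 were present on 0 arrays (55.6%), against 22.9% of all 14132 named genes. Among the tested, 3 differed among lines by limma's F test: MEIG1, needed for sperm formation in mice (range 1.63, adjusted p = 0.0111), and the outer dense fibre genes ODF1 (2.05, adjusted p = 0.0125) and ODF2 (1.13, adjusted p = 0.0476). These were 42.9% of the genes tested, against 17.4% of all tested genes. MEIG1 was highest in line 906, and both ODF genes were highest in line 2906, which had 1 array. ODF1 was called present on 0 of the 27 arrays. PRM1, a sperm nuclear protamine, spanned 2.24 with an adjusted p of 0.46 and was present on 0 arrays. The summed signal of the 18 genes was 1686 in line 3806, the second lowest, and 2206 in line 2906, the second highest, against 1557 to 2244 in the other lines.

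Early germ cell and meiosis genes differed among lines in 3 of 7 tested (42.9%), against 17.4% of all tested genes. NANOS3, an RNA-binding protein of primordial germ cells, was highest in line 3806 at 7.77 and lowest in line 2906 at 5.49 (adjusted p = 0.0189), the 2 lines in which SPMAP2 was detected. KIT (range 1.48, adjusted p = 0.015) was highest in line 2406 and SYCP3, part of the meiotic chromosome axis (1.27, adjusted p = 0.0229), in line 3006. TDRD1 spanned 1.56 with an adjusted p of 0.628.

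Heat shock factor pathway genes, read beside HSBP1L1, differed among lines in 3 of 13 tested (23.1%), near the 17.4% of all tested genes. The 3 were the co-chaperones DNAJA1 (range 2.08, adjusted p = 0.00183), DNAJB1 (1.40, adjusted p = 0.0166) and BAG3 (1.00, adjusted p = 0.0333). HSBP1 itself spanned 0.52 (adjusted p = 0.181) and HSF1 spanned 1.37 (adjusted p = 0.303), while CRYAB spanned 1.5 (adjusted p = 0.503). DNAJA1 was highest in line 306, as HSBP1L1 was, DNAJB1 in line 3106, and BAG3 in line 3006, where HSBP1L1 was absent. DNAJB1 was lowest in line 106, where HSBP1L1 was present, and DNAJA1 and BAG3 in line 2906, where it was absent. The median range over the 13 genes was 0.96, against 0.86 over all tested genes.

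Markers of other cells that colonies could hold were summed beside these results. Fibroblast and feeder markers, 12 on the array of which 1 was present on 0 arrays, summed to 28973 in line 3806 and 23153 in line 2906, against 34777 to 42196 in the other 8 lines, so the lines with detected SPMAP2 had the lowest sums. Such a sum is weighted towards the brightest markers. COL1A2 (range 3.04, adjusted p = 1.15e-07 by limma's F test), COL6A3 (2.52, adjusted p = 0.00352) and COL1A1 (5.21, adjusted p = 0.0304) differed among lines. They were 3 of 11 tested (27.3%), against 17.4% of all tested genes. COL6A3 was lowest in line 3806 and COL1A1 in line 2906, but COL1A2 was lowest in line 2406, as SPMAP2 was. The part of feeder or fibroblast RNA in the SPMAP2 pattern was not tested. Trophoblast markers differed in 2 of 9 tested (22.2%, near that background), among them KRT8 (4.40, adjusted p = 0.00424), lowest in line 2906. The sum of trophoblast markers was 3584 in line 3806 and 5657 in line 2906, against 3244 to 4800 in the other lines.

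Endoderm markers differed among lines in 5 of 8 tested (62.5%, against 17.4% of all tested genes), with GATA6 widest (3.08, adjusted p = 0.0314). Their sum was 3887 in line 206 and 3528 in line 3806, the lines with detected LOC720650, against 1688 to 6106 in the others. Pluripotency genes differed in 2 of 10 (20%, near that background), GDF3 (2.43, adjusted p = 0.00443) and ZFP42 (1.64, adjusted p = 0.00966). Of neural markers, TUBB3 differed (2.07, adjusted p = 0.009), 1 of 4. Mesoderm markers differed in 0 of 3 and blood and endothelium markers in 0 of 2. No gene of these 10 lists passed the male against female test.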

How the data were processed

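The deposited intensity values, 1 signal per probe set and array, were made by the authors with GCOS from 300 ng of total RNA per sample, per the submitters' processing notes and the labels' protocols; its version is not given in the sources used here. With 2% of values trimmed at each end, every array averaged 500.03 to 500.04, so the authors' values were already scaled. Detection calls came from a second deposited table, which filled 1 blank cell. The pedigree and sex of each line were read from the authors' table of attributes.

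Of 52865 probe sets, 158 controls were set aside. Of the rest, 24956 carry 1 symbol, 361 several and 27390 none. Symbols and gene order follow RefSeq's table of assembly T2T-MMU8v2.0, through gene identifiers, which matched for 24616 probe sets. Coordinates are not given since the probes predate that assembly. A gene was represented by its brightest probe set.

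The deposited signals were analysed as log2(signal + 16) without further normalization, a scale that understates changes of dim genes. Probe sets above the array median on at least 3 arrays were tested, 32856 in all and 11317 genes. Sex was tested on line means and differences among lines on the 27 arrays, with limma 3.58.1 in R 4.3.3 and Benjamini-Hochberg adjustment at 0.05. In the test among lines, line 2906, with 1 array, was assumed to vary like the others. The steps were tested on simulated data. The number of arrays limits the precision.

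The members, lists and rules were chosen with earlier results of these data known. Named genes were the members, the 5 most and 3 least like genes, 3 neighbours with a probe set on each side, up to 4 genes of widest range per list, and pluripotency references. BAG3, ODF2 and HSBP1 were named after their values were seen. Only 2 neighbours of SPMAP2 were found on one side. Alternatives were other pseudocounts, filters, normalizations, call rules and fits, and leaving out lines or arrays.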

Additional observations from a re-analysis of the deposited data

How the results depend on the processing

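Over 20 alternatives the sex difference of SPMAP2 and LOC720650 stayed negative and below the threshold, at -2.80 to -1.25 and -2.13 to -1.30 with 1 line left out. Adjusted p ran from 0.281 to 0.992 for SPMAP2 and from 0.0854 to 0.992 for LOC720650 by limma. That of HSBP1L1 turned to 0.0349 with a pseudocount of 64 and ran from -0.55 to 0.54 with 1 line left out, positive without line 206 (0.33), 906 (0.54), 2706 (0.31) or 3806 (0.14), with adjusted p of 0.872 to 0.999. The causes of these changes were not tested. Probe sets passing for sex numbered 18 to 21 with 1 line left out, 46 with the line as a random block and 34 with the array letter as a replicate block. That block gave 3940 probe sets and 17 list genes among lines. Same-letter arrays of different lines had deviations with a mean r of 0.071 (77 pairs), against -0.024 for other letters (223 pairs), and no source says that a letter marks a shared batch, so letters were not taken as pairs. The 4 arrays with the highest medians all carry the letter c. The 5460 probe sets differing among lines became 3334 with median centring, 2615 without the 6 arrays of high GAPDH ratio (fewer arrays), and 3449 (without line 3006) to 6724 with 1 line left out. The 22 list genes became 14 (without line 3006) to 23 with 1 line left out, and 15 to 25 under the other alternatives.

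The largest gap of SPMAP2 was 3.74 and that of HSBP1L1 1.20, both when line 2906 was left out and when all 6 arrays with a high GAPDH ratio were. With a pseudocount of 1 (0.96), quantile normalization (0.76) or median centring (0.78), the largest gap of HSBP1L1 lay lower, with 22 arrays above it, while that of LOC720650 was 1.26 with a pseudocount of 1 and lay between present and other arrays with one of 64 (0.57). By calls, SPMAP2 was on in 1 line without line 2906 or without those 6 arrays, and also when signals above the middle of the largest gap counted as on; by that last rule LOC720650 was on in 7 lines. Without the arrays of high ratio LOC720650 had no line in between, with only 1 array of line 2406 left. The 195 on-off probe sets became 4926 where most arrays of a line sufficed, 635 by the middle of the gap, 346 once the 4 arrays with the highest medians were dropped and 40 without line 2906. HSBP1L1 was on in the same 5 lines under all 6 call alternatives. Of the 5 genes most like each member, 0, 2 and 0 were shared by Spearman's rho for SPMAP2, HSBP1L1 and LOC720650, and 3, 1 and 2 without line 2906. Calls without either set of arrays and gaps without line 2906 were alternatives chosen after seeing the data. Signals not called present set only an upper limit, and the spread within line 2906 was not measured.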
